A study of Homo sapiens with 8 samples.

Results

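The G1 cyclins CCND1, CCND2, CCND3, CCNE1 and CCNE2 and the CDK inhibitors CDKN1A, CDKN1B, CDKN1C, CDKN2B and CDKN2C were followed across 8 expression arrays of an EML4-ALK lung adenocarcinoma cell line and its drug-resistant derivatives. These 10 genes were chosen by symbol, and 9 of them had a probe set of their own among the 18132 genes named by the platform's probe table. CDKN2C was not analysed here. Where a gene had several probe sets, the one brightest on average was used and the others served as a check. The signal of 7 members exceeded the floor for testing, a log2 signal of 5.36 on at least 2 arrays, as did that of 10527 genes in all. CCND2 and CDKN2B stayed below the floor on every array.

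The cells were parental H3122, which carry the EML4-ALK fusion kinase, and the derivatives H3122-LR2 and H3122-LR3, here LR2 and LR3, whose resistance to ALK inhibition the study addressed. For parental and LR2 cells there was an untreated, a crizotinib and a ceritinib array, and for LR3 cells an untreated and a ceritinib array. Both agents are inhibitors of the ALK kinase and were applied at 1000 nM over 6 h, in RPMI medium with serum. Each of the 8 conditions had 1 array. How LR2 and LR3 were selected, and whether each is a single clone, is not given in the sources used here. All values are log2 signals, so a difference of 1 is a doubling, and signals of different probe sets were not set against each other.

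Cells commit to division in G1, when D-type cyclins activate CDK4 and CDK6 and E-type cyclins activate CDK2. These kinases phosphorylate the retinoblastoma protein and so release E2F transcription factors, which switch on the genes of DNA replication. Mitogenic signalling through RAS and ERK is a classical inducer of CCND1. The CIP/KIP inhibitors p21 (CDKN1A), p27 (CDKN1B) and p57 (CDKN1C) restrain cyclin-CDK2 complexes, and the INK4 inhibitors p15 (CDKN2B) and p18 (CDKN2C) bind CDK4 and CDK6. CDKN1A is a target of p53, CDKN1B of FOXO factors, and CCNE1, CCNE2 and CDC25A are E2F targets.

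Promoters were taken from RefSeq sequences of the build GRCh38.p14, which held 10 promoters of 6 members. CCND1, CCND2, CCNE2 and CDKN1C had no entry. The 250 bases before the start site are shown for CCNE1, CDKN1B and CDKN1A, the 3 of these 6 genes with a single promoter entry on the plus strand. Each reads from 5′ to 3′ on the plus strand and ends at the base before the start site. Capitals mark the GC box (GGGCGG, the core bound by SP1-type factors) and the CCAAT box (CCAAT, bound by NF-Y), each searched on both strands. CCNE1 lies at chr19:29811741-29811990, CDKN1B at chr12:12717118-12717367 and CDKN1A at chr6:36678464-36678713.
CCNE1: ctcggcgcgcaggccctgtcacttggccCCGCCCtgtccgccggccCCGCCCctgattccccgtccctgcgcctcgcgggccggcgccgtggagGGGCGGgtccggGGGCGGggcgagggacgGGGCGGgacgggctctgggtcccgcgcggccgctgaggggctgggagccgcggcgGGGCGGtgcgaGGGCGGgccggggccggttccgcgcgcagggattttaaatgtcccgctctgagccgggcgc
CDKN1B: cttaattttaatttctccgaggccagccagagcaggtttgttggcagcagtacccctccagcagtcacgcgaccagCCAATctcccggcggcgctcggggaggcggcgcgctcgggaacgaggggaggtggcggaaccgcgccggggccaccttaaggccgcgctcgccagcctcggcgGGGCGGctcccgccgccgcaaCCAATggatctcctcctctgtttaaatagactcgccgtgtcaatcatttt
CDKN1A: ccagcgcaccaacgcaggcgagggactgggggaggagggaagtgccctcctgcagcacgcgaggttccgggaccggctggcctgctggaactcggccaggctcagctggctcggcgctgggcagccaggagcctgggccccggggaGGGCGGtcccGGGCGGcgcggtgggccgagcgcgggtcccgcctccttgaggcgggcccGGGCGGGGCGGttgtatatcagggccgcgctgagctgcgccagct

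The CCNE1 stretch held 7 GC boxes, no CCAAT box and a GC content of 81.2%. The CDKN1A stretch held 4 GC boxes, of which 2 overlapped by 1 base, no CCAAT box and a GC content of 76.4%. The CDKN1B stretch held 1 GC box and 2 CCAAT boxes, with a GC content of 64.4%. Among 35116 RefSeq promoters, 42.6% held a GC box and 32% a CCAAT box in the same 250 bases. In the 300 bases from 250 before to 50 after the start site, none of these 3 promoters held TGANTCA (AP-1), ACGTCA (CRE), GTAAACA (FOXO), CACGTG (E-box) or an E2F word (TTTCGCG or TTTGGCG or TTTCCCG or TTTGCCG) on either strand. These words occurred in 7.71%, 7.98%, 3.42%, 7.26% and 8.67% of all promoters of that length, respectively, with the 4 E2F words counted as 1 motif. Of the other members, 1 promoter of CCND3 held a FOXO word across its start site, CDKN2B held the E2F word TTTGCCG, and 2 of the 3 promoters of CDKN2C each held a CRE and an E-box word. A match describes letters in these windows, and a missing match says nothing about the factor.

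All 9 epithelial and fusion-partner markers of the panel were detected, EPCAM between 12.22 and 12.52 and NKX2-1, the lung lineage factor, between 10.38 and 11.25. The 6 fibroblast markers stayed below the floor, as did PTPRC, CD3E and CD14 of the leukocyte markers and PECAM1 and TEK of the endothelial markers. CD68, TYROBP, VWF, CDH5 and KDR passed the filter, each within a range of 0.81 or less over the 8 arrays. Array medians lay between 5.31 and 5.36, apart from 5.46 on the LR2 ceritinib array. Because of that array, the median tested gene was 0.10 higher with ceritinib than untreated in LR2, and the members' differences between these arrays are also given after quantile normalization, which moved this median to -0.005.

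**Figure D1:**
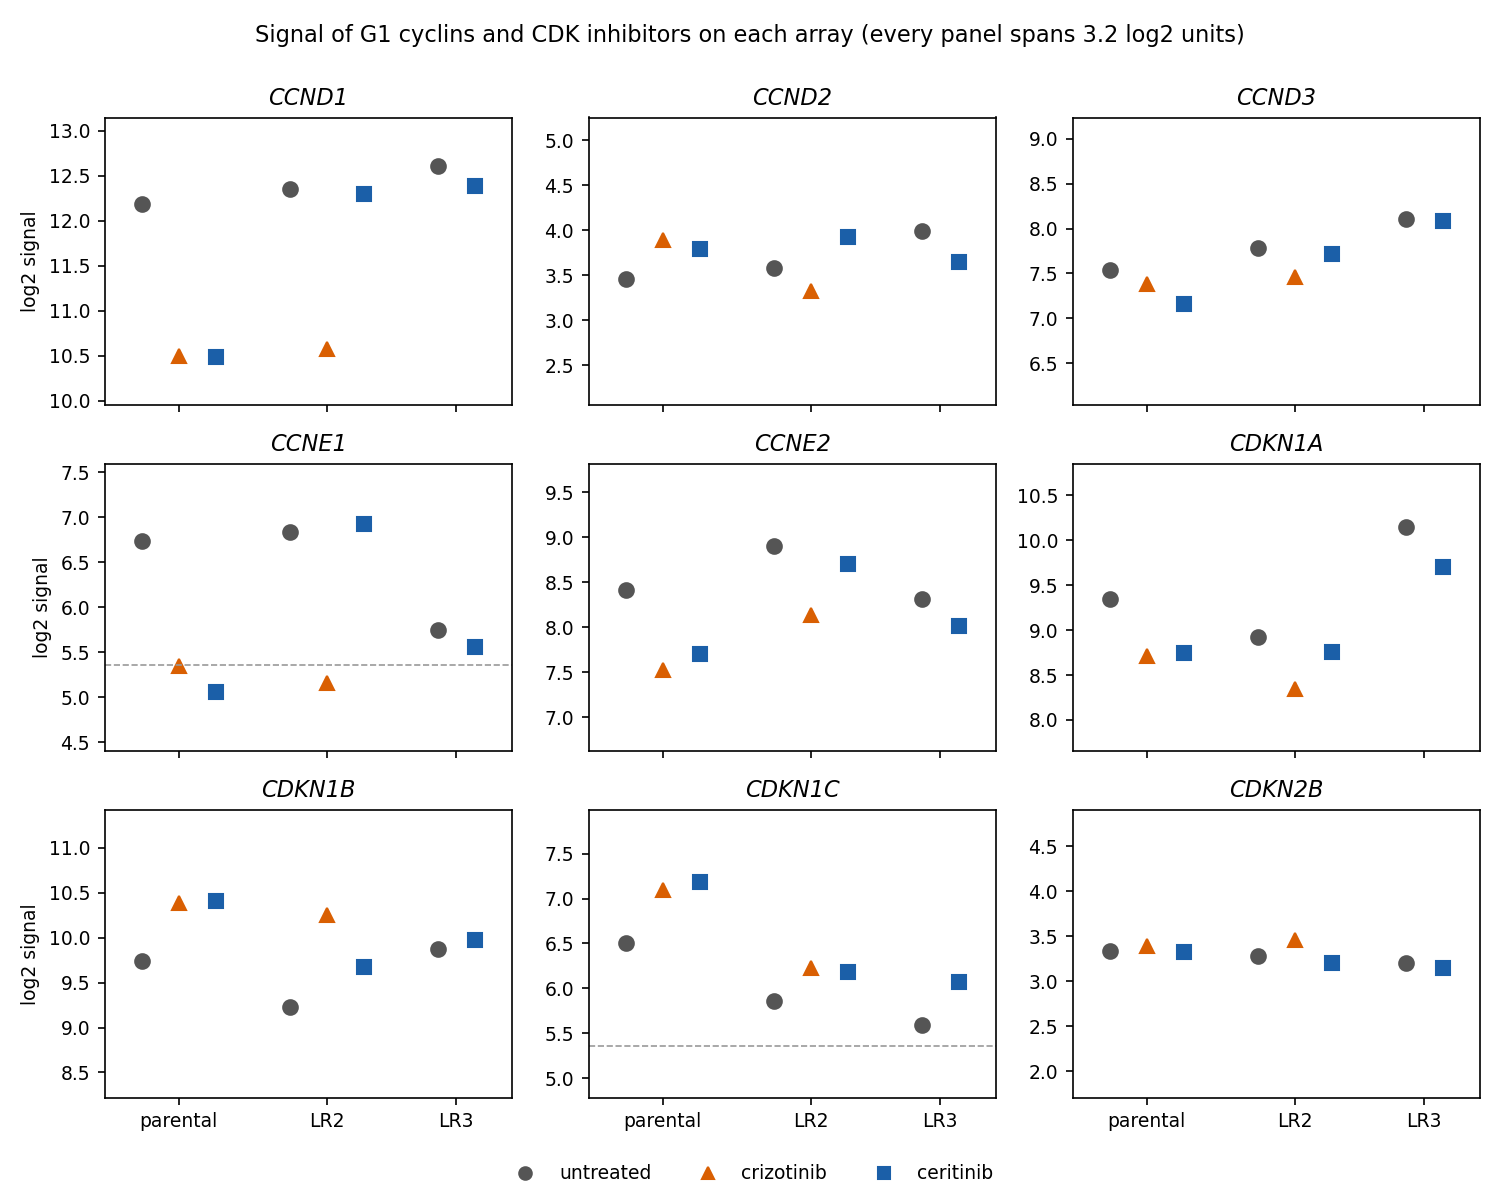
Log2 signal (vertical axis) of the 9 measured members on each of the 8 arrays, by line (horizontal axis) and agent (symbol). Every panel spans the same width in log2 units, and the dashed line marks the floor of 5.36 where it falls inside a panel. CCND1 lies at 10.49 to 10.57 on 3 of the inhibitor arrays and at 12.19 or above on the other arrays.

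Among the D-type cyclins, CCND1 separated the arrays into a low and a high set. Its signal in parental cells was 12.19 untreated, 10.50 with crizotinib and 10.49 with ceritinib. In LR2 cells it was 12.35 untreated, 10.57 with crizotinib and 12.30 with ceritinib, and in LR3 cells 12.61 untreated and 12.39 with ceritinib. The 3 low arrays were thus both treated parental arrays and the crizotinib array of LR2, and no array lay between 10.57 and 12.19. In such bulk RNA, fewer cells in a phase of the cycle and less RNA per cell cannot be told apart. Against the untreated array of the same line, CCND1 was 3.23-fold lower with crizotinib and 3.25-fold lower with ceritinib in parental cells, and 3.43-fold lower with crizotinib in LR2 cells. These differences ranked 27, 28 and 20 among the 10527 tested genes ordered from the most negative difference. With ceritinib the difference was -0.05 in LR2 (-0.14 after quantile normalization) and -0.22 in LR3. The 3 other probe sets of CCND1 gave differences of -1.97 to -1.82, -2.10 to -1.69 and -1.94 to -1.79 on the 3 low arrays, in the same order.

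CCND3, the third D-type cyclin, varied less. Its signal was 7.54, 7.38 and 7.16 in parental cells (untreated, crizotinib, ceritinib), 7.78, 7.46 and 7.72 in LR2, and 8.11 and 8.08 in LR3 (untreated, ceritinib). All 3 untreated arrays were at or above the treated arrays of their line, by 0.03 to 0.38. The LR2 ceritinib difference was -0.06, and -0.17 after quantile normalization. Both LR3 arrays lay above all 6 arrays of the other lines. The other probe set of CCND3 stayed between 2.76 and 3.08, below the floor, and could not serve as a check. CCND2 lay between 3.32 and 3.99, below the floor, and was not compared.

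CCNE1, the cyclin that activates CDK2 at the entry into S phase, was split in the same way as CCND1 in parental and LR2 cells. It was 6.73 untreated, 5.35 with crizotinib and 5.06 with ceritinib in parental cells. In LR2 cells it was 6.84 untreated, 5.16 with crizotinib and 6.93 with ceritinib. Both LR3 arrays were lower than the other untreated arrays, at 5.75 untreated and 5.56 with ceritinib. The differences from the untreated array were -1.38 and -1.67 in parental cells with crizotinib and ceritinib and -1.68 in LR2 with crizotinib, ranks 42, 30 and 24 among the negative differences. With ceritinib the difference was 0.09 in LR2, which turned to -0.05 after quantile normalization, and -0.19 in LR3. CCNE1 exceeded the floor of 5.36 on 5 arrays only and its 3 lowest signals lay below it, so the size of these differences may be compressed. The other probe set of CCNE1 stayed between 3.18 and 3.42 and could not serve as a check.

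CCNE2, the second E-type cyclin, kept a smaller difference in the same 3 pairs. Its signal was 8.41, 7.53 and 7.70 in parental cells, 8.91, 8.14 and 8.71 in LR2 and 8.31 and 8.02 in LR3, in the order used above. The inhibitor arrays differed from the untreated array by -0.88 and -0.71 in parental cells, by -0.77 with crizotinib in LR2, by -0.20 with ceritinib in LR2 (-0.30 after quantile normalization) and by -0.29 in LR3. All 5 treated arrays lay below the untreated array of their line. In its second probe set the 2 ceritinib arrays of the derivatives differed the other way, by 0.13 in LR2, where the median tested gene was 0.10 higher, and by 0.15 in LR3.

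The CIP/KIP inhibitors differed in sign among themselves. CDKN1A was lower on treated arrays, whereas CDKN1B and CDKN1C were higher. CDKN1A was 9.35, 8.71 and 8.74 in parental cells, 8.92, 8.35 and 8.76 in LR2, and 10.15 and 9.70 in LR3. Its differences from untreated were -0.64, -0.61, -0.57, -0.16 and -0.45 for parental crizotinib, parental ceritinib, LR2 crizotinib, LR2 ceritinib and LR3 ceritinib, and the LR2 ceritinib value was -0.26 after quantile normalization. In LR3 the difference of -0.45 was the largest of any tested member in that line apart from CDKN1C, and its second probe set gave -0.73.

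CDKN1B, which encodes p27, was 9.74, 10.38 and 10.41 in parental cells, 9.23, 10.25 and 9.67 in LR2, and 9.87 and 9.97 in LR3. It was highest on the 3 arrays on which CCND1 was lowest. The difference from untreated was 0.64 and 0.67 in parental cells and reached 1.02 with crizotinib in LR2, rank 45 among the positive differences. With ceritinib it was 0.44 in LR2 (0.36 after quantile normalization) and 0.10 in LR3. Its second probe set gave 0.73, 0.78, 0.89, 0.50 and 0.27 for the same 5 pairs.

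CDKN1C, which encodes p57, was 6.50, 7.10 and 7.18 in parental cells, 5.86, 6.23 and 6.18 in LR2, and 5.59 and 6.07 in LR3. Every treated array lay above the untreated array of its line, by 0.60, 0.68, 0.37, 0.32 and 0.48 in the same order. In LR2 the gap between the agents was smaller for CDKN1C than for CCND1 and CCNE1, with 0.37 for crizotinib and 0.32 for ceritinib. After quantile normalization these were 0.37 and 0.19, so their near equality depended on the scaling of the arrays. The lines themselves did not overlap between parental cells and the derivatives, since the lowest parental signal, 6.50, exceeded the highest of LR2 and LR3, 6.23. Both other probe sets of CDKN1C had the same sign in all 5 pairs, although the dimmest lay below the floor on both LR3 arrays. Of the INK4 inhibitors, CDKN2B lay between 3.15 and 3.46 on all arrays, below the floor.

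**Figure D2:**
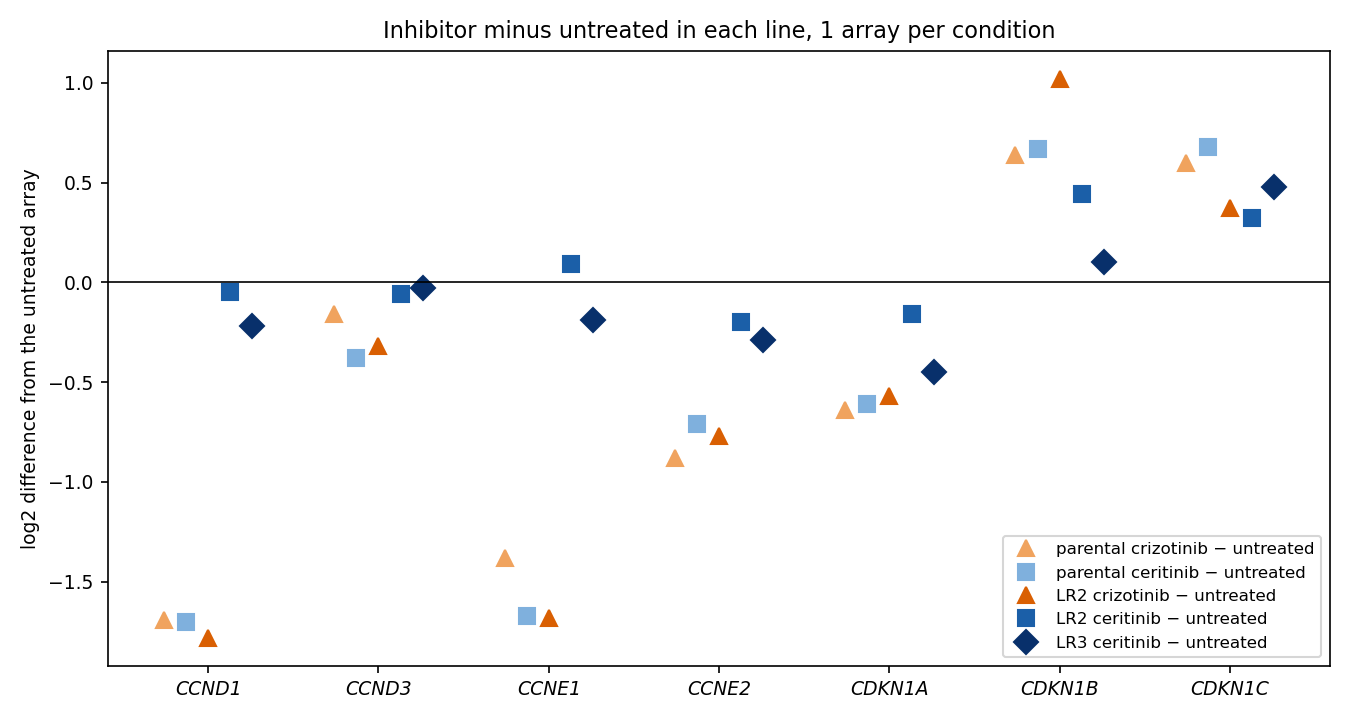
Difference in log2 signal between each inhibitor array and the untreated array of its line (vertical axis) for the 7 tested members (horizontal axis), with 1 array per condition and therefore no error bars. CCND1 and CCNE1 lie between -1.78 and -1.38 in both parental pairs and the LR2 crizotinib pair, and between -0.22 and 0.09 in the ceritinib pairs of LR2 and LR3.

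None of these inhibitor differences passed a test on the deposited values. The first model took crizotinib and ceritinib as 1 inhibitor condition within a line and had 2 residual degrees of freedom. In that model limma called 0 of the 7 tested members in parental cells, LR2 or LR3, and also 0% of the 10527 genes. At an unadjusted p under 0.05, 1849, 1015 and 499 genes passed in the 3 lines. The estimate for CCND1 in parental cells was -1.70 ± 0.65 (SE, limma adjusted p = 0.271), and that for CDKN1C was 0.64 ± 0.10 (limma adjusted p = 0.142). The spread was pooled from the crizotinib and ceritinib arrays of parental and LR2 cells. For CCND1, ceritinib minus crizotinib was -0.01 in parental cells and 1.73 in LR2, so most of that spread came from LR2. In LR2 the pooled CCND1 estimate of -0.92 ± 0.65 (limma adjusted p = 0.688) averaged 1 array that was low with 1 that was not. The differences between the lines in inhibitor response were not called either, for 0 of 7 members and 0% of all genes, with 251 genes for LR2 and 505 for LR3 at an unadjusted p under 0.05. For CCND1 the response in LR3 minus that in parental cells was 1.48 ± 0.99 (limma adjusted p = 0.917).

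A second model kept the agents apart in LR2. It was chosen after the data had been seen and rests on 1 residual degree of freedom, the crizotinib and ceritinib arrays of parental cells, with LR2 and LR3 arrays assumed to vary like them. For CCND1 in parental cells the standard error was 0.05 in this model and 0.65 in the first. Its estimates were -1.70 ± 0.05 for either inhibitor in parental cells (limma adjusted p = 0.155), -1.78 ± 0.06 for crizotinib in LR2 (limma adjusted p = 0.256) and -0.05 ± 0.06 for ceritinib in LR2 (limma adjusted p = 0.716). Here too limma called 0 members and 0% of all genes, with 2401, 1784 and 1143 genes at an unadjusted p under 0.05 in these 3 comparisons. After quantile normalization the parental comparison called 460 genes, among them CCND1 (adjusted p = 0.019), CCNE1 (0.0317), CDKN1B (0.0384) and CDKN1A (0.0459), and the LR2 crizotinib comparison called 33 genes, among them CCND1 (0.0393).

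Crizotinib and ceritinib were compared directly at their common dose and time. In parental cells the ceritinib array minus the crizotinib array was -0.01 for CCND1, -0.29 for CCNE1, 0.17 for CCNE2, 0.03 for CDKN1A, 0.03 for CDKN1B, 0.08 for CDKN1C and -0.22 for CCND3. In LR2 the same difference was 1.73 for CCND1, 1.77 for CCNE1, 0.57 for CCNE2, 0.41 for CDKN1A, -0.58 for CDKN1B, -0.05 for CDKN1C and 0.26 for CCND3. After quantile normalization these LR2 values were 1.68, 1.64, 0.48, 0.32, -0.66, -0.18 and 0.14 in the same order. All 4 probe sets of CCND1 gave 1.73 to 1.85 in LR2. In LR2 the test with agents apart gave ± 0.06 for CCND1 and ± 0.20 for CCNE1 and called neither (limma adjusted p = 0.364 for both), and 0% of all genes passed, with 1401 at an unadjusted p under 0.05. Over all lines the additive model, with terms for line and agent, also called 0 of 7 members and 0% of all genes, with 637 at an unadjusted p under 0.05. There the estimate was 0.97 ± 0.36 for CCND1 (limma adjusted p = 0.777) and 0.01 ± 0.10 for CDKN1C (limma adjusted p = 0.991). Without the parental ceritinib array 4 members passed, CCND1, CCNE1, CCNE2 and CDKN1B, beside 401 of the 10527 genes (316 higher, 85 lower). CCND1 was then 1.64 (limma adjusted p = 8.35e-05). LR2 was then the only line with arrays of both agents.

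The additive model also compared the lines, over all 8 arrays. LR2 differed from parental cells in 3 of the 7 tested members, in which CCNE2 rose and CDKN1B and CDKN1C fell, beside 22.5% of all tested genes (1350 higher, 1019 lower). The labels name no separate cultures. With line and agent terms fitted, this model's p-values reflect only how the differences between lines changed from one agent to the next. Unequal responses of the lines to an agent and technical scatter both enter this spread and cannot be told apart. CCNE2 rose by 0.71 ± 0.10 (SE, limma adjusted p = 0.00312), and the LR2 array was higher in each of the 3 matched pairs, by 0.50 untreated, 0.61 with crizotinib and 1.01 with ceritinib. CDKN1C fell by 0.84 ± 0.08 (limma adjusted p = 0.000574), with pair differences of -0.64, -0.87 and -1.0. CDKN1B fell by 0.46 ± 0.13 (limma adjusted p = 0.0422), with pair differences of -0.51, -0.13 and -0.74. The call for CDKN1B was lost in 6 of 16 alternative settings, with adjusted p up to 0.286, although its second probe set gave -0.56 ± 0.11 (limma adjusted p = 0.0107 among probe sets).

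The remaining members did not pass in LR2. CCND1 was 0.68 ± 0.31 higher in LR2 (limma adjusted p = 0.155) and CCNE1 0.60 ± 0.34 (limma adjusted p = 0.249). For both, the size came from the ceritinib pair, at 1.81 for CCND1 and 1.87 for CCNE1, whereas the untreated pair differed by 0.16 and 0.11 and the crizotinib pair by 0.07 and -0.19. CCND3 was 0.29 ± 0.10 higher (limma adjusted p = 0.0721). CDKN1A was -0.26 ± 0.10 (limma adjusted p = 0.0912), with -0.43 untreated and -0.36 with crizotinib but 0.02 with ceritinib, a sign that turned to -0.11 after quantile normalization. CDKN1A passed in 4 of 16 alternative settings, among them quantile normalization and median centring.

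In LR3, CCND3 and CDKN1A rose and CDKN1C fell against parental cells, 3 of 7 tested members beside 21.6% of all tested genes (1003 higher, 1271 lower). CDKN1A rose by 0.85 ± 0.11 (limma adjusted p = 0.00223), with 0.80 in the untreated pair and 0.96 in the ceritinib pair. CDKN1C fell by 1.02 ± 0.10 (limma adjusted p = 0.000604), with -0.91 and -1.11. CCND3 rose by 0.69 ± 0.12 (limma adjusted p = 0.00641), with 0.57 and 0.92. The calls for CDKN1A and CDKN1C held in all 16 alternative settings, and that for CCND3 was lost without the LR3 ceritinib array (adjusted p = 0.0788).

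CCND1 was 1.01 ± 0.36 higher in LR3 than in parental cells (limma adjusted p = 0.085), again with a small untreated difference, 0.42, and a large one with ceritinib, 1.90. It passed without the LR2 ceritinib array (adjusted p = 0.0445). CCNE1 differed in sign between the pairs, at -0.98 untreated and 0.50 with ceritinib, and its estimate of -0.44 ± 0.40 did not pass (limma adjusted p = 0.482). Without the parental ceritinib array, 1 of the 2 arrays on which parental CCNE1 was below the floor, CCNE1 was -1.17 in LR3 and passed (adjusted p = 0.000687). CCNE2 and CDKN1B gave 0.09 ± 0.12 and -0.07 ± 0.16 (limma adjusted p = 0.659 and 0.778).

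**Figure D3:**
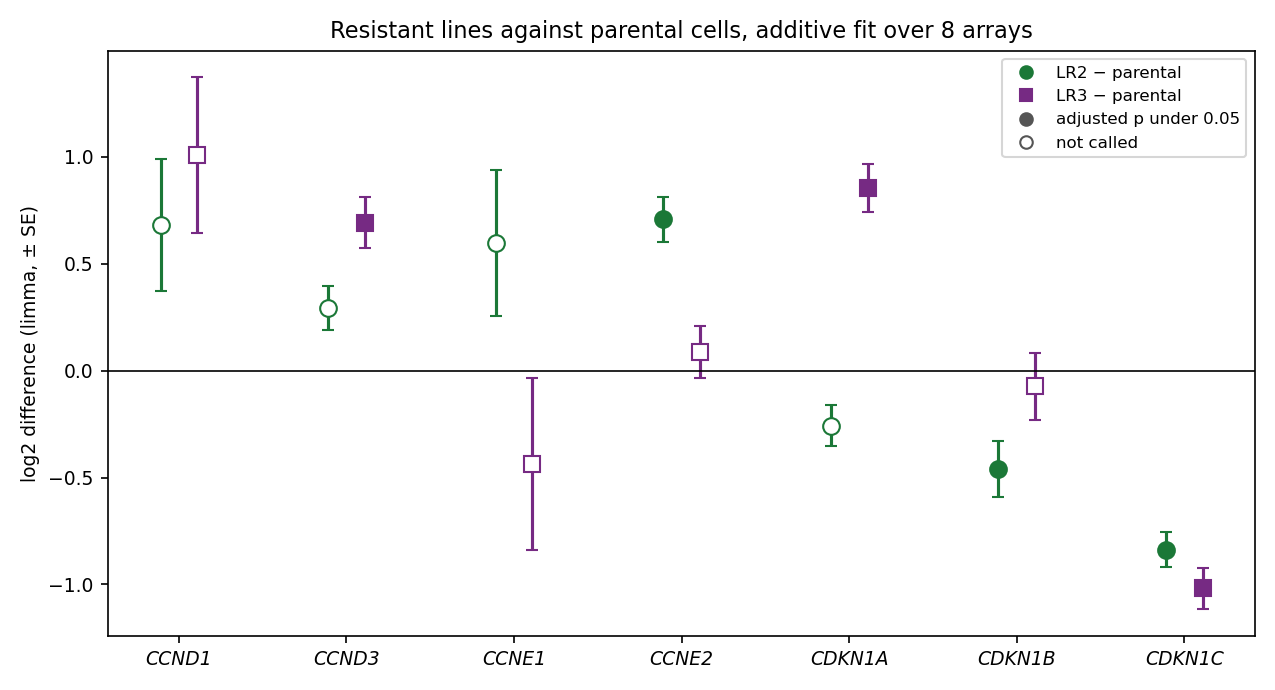
Log2 difference from parental cells (vertical axis) of the 7 tested members (horizontal axis) in LR2 and LR3, as estimated by the additive model over 8 arrays. Bars are standard errors of limma and filled symbols mark an adjusted p under 0.05. CDKN1C is lower in both derivatives, CDKN1A is 0.85 higher in LR3, and CCND1 and CCNE1 have the widest bars.

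LR3 and LR2 differed from each other in 3 of the 7 members, beside 19.6% of all tested genes (767 higher, 1297 lower). CDKN1A was 1.11 ± 0.11 higher in LR3 (limma adjusted p = 0.00073), a call that held in all 16 alternative settings. CCNE2 was lower in LR3, at -0.62 ± 0.12 (limma adjusted p = 0.0107), and lost its call in 4 of the 16 settings. CCND3 was 0.40 ± 0.12 higher (limma adjusted p = 0.0497) and lost its call in 10 of the 16. CCNE1 was -1.03 ± 0.40 (limma adjusted p = 0.113), and passed without the parental ceritinib array (adjusted p = 0.000147). For CDKN1C the probe set used gave -0.18 ± 0.10 (limma adjusted p = 0.239), while its 2 dimmer probe sets gave -0.51 and -0.53 and were called when tested among all probe sets (adjusted p = 0.0284 and 0.00782). The probe set at -0.51 lay below the floor on both LR3 arrays, at 5.17 with ceritinib and 5.04 untreated. The probe set at -0.53 lay below the floor on the untreated LR3 array. Both calls thus rest partly on signals below the floor. With only 7 tested members, these counts of 3 are read as a description beside the shares of all genes called. LR2 and LR3 were compared with the same parental arrays, so their differences from parental cells share those values.

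The order of the lines in untreated cells followed from 1 array each. CDKN1A was highest in LR3 (10.15), then parental (9.35), then LR2 (8.92). CDKN1C was highest in parental cells (6.50), then LR2 (5.86), then LR3 (5.59). CCND3 ran the other way, with LR3 at 8.11, LR2 at 7.78 and parental cells at 7.54, and only LR3 against the other lines passed the test.

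The genes around these members were taken from 5 lists, which hold no member and of which 2 share ETV4, ETV5, FOSL1 and EGR1. List genes are said to rise or fall only where called. In the list of CDKs, the retinoblastoma family and E2F factors, 25 of 26 genes were tested. LR2 had 6 of these higher and 2 lower than parental cells, beside 22.5% of all genes called, with a list median of 0.08 beside 0.02 over all tested genes. CDC25A, the phosphatase that activates CDK2, rose by 0.83 ± 0.22 (limma adjusted p = 0.0305), E2F3 by 0.76 ± 0.13, CDK6, the partner of D-type cyclins, by 0.74 ± 0.08 and E2F1 by 0.56 ± 0.08. LR3 had 4 higher and 2 lower, beside 21.6% of all genes called, with a list median of 0.00 beside 0.01, in which E2F3 rose by 0.61 ± 0.15 and CDK6 by 0.40 ± 0.09, while E2F5 fell by 0.63 ± 0.16 and CDK7 fell by 0.41 ± 0.08. LR3 against LR2 had 0 higher and 5 lower, beside 19.6% of all genes called, with a median of -0.13 beside -0.02, CDC25A at -0.87 ± 0.26 and E2F5 at -0.56 ± 0.16 among them.

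CDC25A had a course over the arrays that resembled that of the E-type cyclins. Its signal was 7.03, 6.23 and 5.90 in parental cells, 7.61, 6.57 and 7.46 in LR2, and 6.58 and 6.50 in LR3, so that it too was lower on both treated parental arrays and the LR2 crizotinib array. CDC25A was not alone in this. E2F3 and E2F5 were lower on the same arrays, E2F5 at 7.80, 7.06 and 7.01 in parental cells and 7.43, 6.82 and 7.41 in LR2. E2F8 went the other way, at 8.05, 8.58 and 8.59 in parental cells and 8.32, 8.96 and 8.62 in LR2. The list as a whole did not share the course of CDC25A. Its median difference between inhibitor and untreated arrays lay between -0.09 and 0.12 over the 5 pairs, beside 0.01 to 0.10 for all tested genes.

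The S phase list held replication licensing factors, enzymes of nucleotide synthesis and other S phase genes. It had 19 of 20 genes tested, and its share called in LR2 was close to the 22.5% of all genes. In LR2 4 rose and 0 fell against parental cells (list median 0.12 beside 0.02), among them MCM3, a subunit of the replicative helicase, by 0.66 ± 0.07, CDC45 by 0.41 ± 0.08 and the licensing factor CDC6 by 0.39 ± 0.10. In LR3 6 rose and 1 fell (list median 0.23 beside 0.01, with 21.6% of all genes called), with MCM3 up by 0.60 ± 0.08 and CDC6 by 0.56 ± 0.11, while TYMS, thymidylate synthase, fell by 0.52 ± 0.08. Between inhibitor and untreated arrays the list medians lay between -0.08 and 0.05. In LR3 against LR2, 1 gene of the list was higher, RRM2, and 1 lower, TYMS, beside 19.6% of all genes called.

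Upstream regulators of the members had 16 of 17 genes tested, of which LR2 had 0 higher and 1 lower and LR3 had 2 higher and 3 lower (list medians -0.01 and 0.00 beside 0.02 and 0.01, with 22.5% and 21.6% of all genes called). FOXO3, a factor known to induce CDKN1B, fell by 0.53 ± 0.08 in LR2 and fell by 0.46 ± 0.09 in LR3, where CDKN1B differed by -0.07 ± 0.16. On every treated array FOXO3 lay above the untreated array of its line. It was 8.14, 9.03 and 8.70 in parental cells, 7.74, 8.36 and 8.18 in LR2, and 7.83 and 8.17 in LR3. Any link of FOXO3 to CDKN1B was not tested. FOXO1 fell by 0.88 ± 0.10 in LR3, where its signals of 4.34 and 4.77 lay below the floor. Untreated parental and LR2 cells were also below it, at 5.32 and 4.94, and FOXO1 passed the filter only through the 4 treated arrays of these lines. KLF6, a zinc finger factor, rose by 0.66 ± 0.11 and ETV4 by 0.85 ± 0.16 in LR3. LR3 against LR2 had 2 higher and 2 lower in this list, beside 19.6% of all genes called. The list median differed from untreated by -0.28 and -0.23 in parental cells with crizotinib and ceritinib. It differed by -0.09 and 0.04 in LR2, the latter beside 0.10 for all tested genes, and by 0.04 in LR3.

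The list of p53 targets, kept apart from CDKN1A, had 11 of 12 genes tested. In LR3, 0 of these genes rose and 4 fell (list median -0.12 beside 0.01, with 1003 of all 10527 genes higher and 1271 lower), TP53INP1 by 0.80 ± 0.12, SESN1 by 0.62 ± 0.18, BBC3 by 0.43 ± 0.10 and BAX by 0.40 ± 0.09. In LR2, 0 rose and 1, BBC3, fell by 0.50 ± 0.09, beside 22.5% of all genes called. Between LR3 and LR2, 0 were higher and 1 was lower, TP53INP1 at -0.62 ± 0.12, beside 19.6% of all genes called. The list median differed from untreated by 0.07 and -0.04 in treated parental cells, by 0.08 and 0.26 in LR2 with crizotinib and ceritinib, the latter beside 0.10 for all tested genes, and by -0.05 in LR3. Single genes of the list differed in both directions in parental cells, from -1.26 to 0.92 with crizotinib and from -0.99 to 0.96 with ceritinib.

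**Figure D4:**
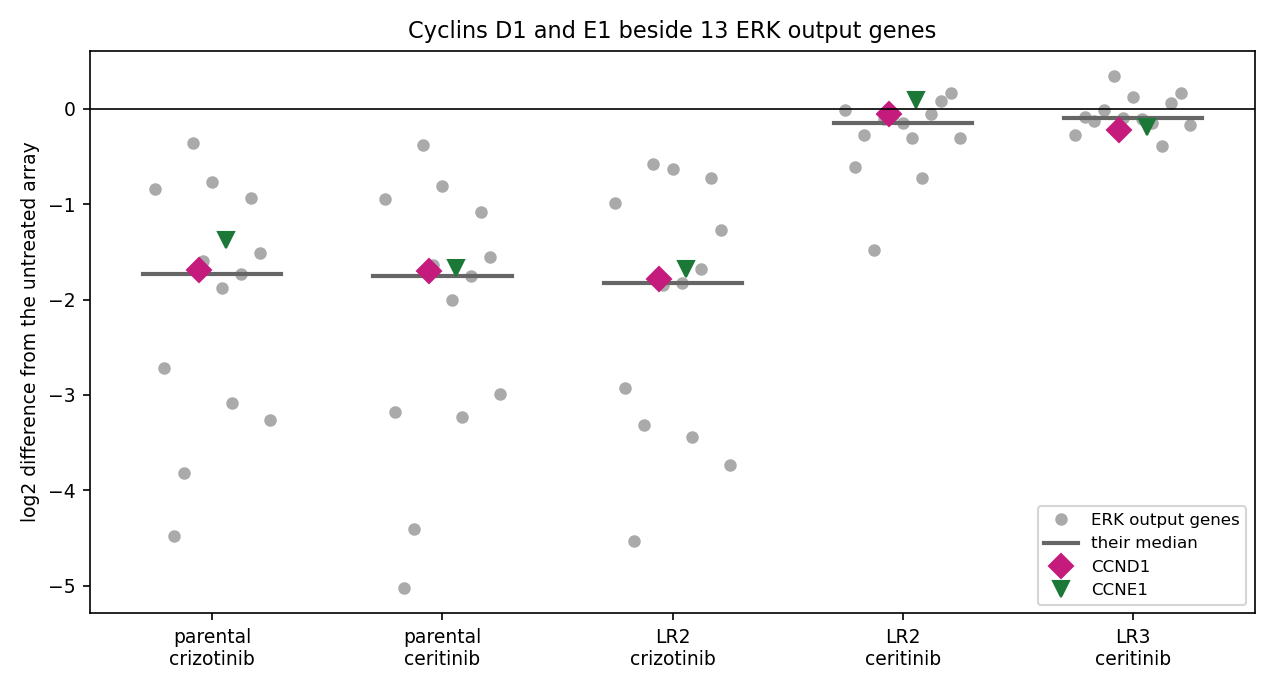
Difference in log2 signal from the untreated array of the line (vertical axis) for 13 ERK output genes (grey points, median as a line), CCND1 and CCNE1 in each inhibitor pair (horizontal axis). The ERK output median is -1.73, -1.75 and -1.83 in the first 3 pairs and -0.15 and -0.10 in the ceritinib pairs of LR2 and LR3, and CCND1 and CCNE1 lie near the median in each.

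The 13 ERK output genes, feedback inhibitors and early factors that follow ERK activity, were all tested. Their median difference from untreated was -1.73 and -1.75 in parental cells with crizotinib and ceritinib, -1.83 in LR2 with crizotinib, -0.15 in LR2 with ceritinib, beside 0.10 for all tested genes, and -0.10 in LR3 with ceritinib. At least 2-fold lower signals were found for 9, 10, 9, 1 and 0 of the 13 in these pairs, against 78, 95, 73, 1 and 0 of the 10527 tested genes. DUSP5, SPRY4, EGR1 and FOSL1 lay below the floor on both treated parental arrays and the LR2 crizotinib array. These genes passed the filter only through the other 5 arrays, on which they were higher. The list was chosen with earlier results of these data known, so its medians and counts are a description only. The single gene in LR2 with ceritinib was EGR1, named after its values were seen, at 8.43 untreated and 6.95 with ceritinib. Between lines, LR2 and LR3 each had 1 ERK output gene higher than parental cells and 0 lower, beside 22.5% and 21.6% of all genes called, SPRY2 by 1.33 ± 0.31 in LR2 and ETV4 in LR3. The list medians were 0.45 and 0.70, and, as for CCND1, they came from the ceritinib pairs (1.70 and 1.96) rather than the untreated pairs (-0.13 and -0.24). LR3 against LR2 had 1 higher, ETV4, and 0 lower (list median 0.47), beside 19.6% of all genes called.

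CCND1 and CCNE1 had the widest ranges of the tested members over the 8 arrays, 2.12 and 1.87. The tested genes with the highest Pearson correlation to CCND1 over these 8 arrays were SPRY4 (r = 0.995), BTG3 (0.993), IER3 (0.992), MIDN (0.992) and TNFRSF10A (0.989). SPRY4 and IER3 belong to the ERK output list. SPRY4 lay at 3.81 to 4.08, below the floor, on the 3 arrays with low CCND1 and at 7.07 to 7.54 on the others. For CCNE1 they were PDCD2L (r = 0.984), GNA12 (0.981), ZNF317 (0.975), SNX30 (0.972) and F3 (0.968), with ranges of 0.30 to 1.11 over the arrays. These coefficients describe 8 arrays that share lines and agents, and the genes were picked as the highest of all those tested.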

How the data were processed

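Biotin-labelled target was prepared from total RNA of 8 conditions by 3' in vitro transcription, per the labels' protocols. The authors deposited log2 probe set signals made with RMA, per the submitters' processing notes. The RMA software and the arrays normalized together are not given in the sources used here. No further normalization was applied. Of 49395 probe sets, 102 were controls and 44988 others had 1 gene symbol in the platform's probe table (1832 had several and 2569 were not listed). A gene was tested if its brightest probe set exceeded 5.36, the 50th percentile of all values, on at least 2 arrays. Line and agent comparisons used limma 3.58.1 in R 4.3.3 with additive terms (3 residual degrees of freedom). Inhibitor responses used 6 cells of line by inhibitor or none, and an added model kept the LR2 agents apart. Empirical Bayes moderation had 4.99, 3.43 and 1.42 prior degrees of freedom in these models. Benjamini-Hochberg adjustment ran over all 10527 tested genes, with calls at an adjusted p under 0.05. The scripts were tested on simulated data. All 10 members were named, and from each list up to 4 called genes with the largest difference per comparison. Signals of CDC25A, E2F3, E2F5, E2F8, FOXO3, SPRY4 and EGR1 were added for their course, and DUSP5 and FOSL1 were named for the floor. The members, lists and motifs were chosen with earlier results of these data known, and the GC and CCAAT boxes were added after the first motif search. Alternatives covered the probe set rule, the filter, normalization, the variance trend, the agent term and each array left out. Precision is limited by having 8 arrays, 1 for each condition.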

Additional observations from a re-analysis of the deposited data

How the results depend on the processing

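No difference of a called member reversed its sign under any alternative that was run, which left out 1 array at a time or changed the probe set rule, the filter, the normalization, the variance model or the model terms. Without the agent term, 1 member was called for LR2 against parental cells and 1 for LR3 against LR2, instead of 3 each. All-gene calls under that setting were 1478 and 1568. With 1 array left out, LR3 against LR2 called 1 to 5 members (5 without the parental ceritinib array, 1 without the LR2 ceritinib array or either LR3 array), and ceritinib against crizotinib called 0 to 4, the 4 beside 401 of all genes without the parental ceritinib array. With LR2 agents apart, quantile normalization raised the calls from 0 to 4 members in parental cells and from 0 to 1 for crizotinib in LR2. CCNE1 left the test under 3 settings, the mean of its probe sets, probe sets without the suffixes s and x, and a floor on all arrays. Over all genes, the split of higher to lower calls for LR2 against parental cells went from 1350 to 1019 to 1178 to 1408 after quantile normalization and 1289 to 1276 after median centring. Median centring gave 1498 to 1223 for LR3 against parental cells and 1290 to 1103 for LR3 against LR2, where quantile normalization gave 1100 to 1217. For LR2 against parental cells all-gene calls dropped to 1478 without the agent term and to 1146 without the parental or the LR2 crizotinib array, 1489 without the parental untreated, 1319 without the LR2 untreated and 1350 without the LR2 ceritinib array. For LR3 against parental cells they dropped to 632 and 830 without the LR3 ceritinib or untreated array and to 1283 without the parental untreated array. For LR3 against LR2 they dropped to 710 and 907 without the same LR3 arrays, 1061 without the LR2 untreated and 1293 without the LR2 ceritinib array. Without the parental ceritinib array, all-gene calls for LR3 against LR2 rose instead, from 2064 to 2630, beside the 5 members called there. Line comparisons were matched by agent through the agent term, and the labels carry no replicate numbers for any other pairing. The causes of these changes were not tested.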
